A study of Mus musculus with 9 samples.

Results

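The lysyl oxidase family is the set of copper-dependent enzymes that crosslink elastin and collagen outside the cell. Its members were taken as the rows of the deposited table whose Ensembl gene identifier maps to the mouse symbols Lox, Loxl1, Loxl2, Loxl3 and Loxl4, which gave 5 genes of 37668 in the table. All 5 reached 1 FPKM in at least 1 group and were therefore among the 14225 genes analysed. The data are RNA sequencing of whole aorta from 9 male mice aged 90 days on a mixed 129T2SvEmsJ and C57Blk/6J background, in 3 groups of 3 libraries. Every mouse carried the floxed allele of the angiotensin II type 1a receptor gene (Agtr1a). The floxed group had no Cre transgene, the Cdh5Cre group carried Cdh5-Cre, which is driven by the promoter of an endothelial cadherin gene, and the Sm22Cre group carried Sm22-Cre, which uses the Tagln promoter, active in smooth muscle. The series title names Marfan syndrome, but the labels of these 9 samples name no fibrillin-1 allele, and there is no group without the floxed allele.

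The deposited values are FPKM, fragment numbers normalised by gene length and library total, and the authors give 1 per group of 3 libraries. Without values per mouse, a difference between groups cannot be weighed against the spread between mice, and no test was made. Depth per library is unknown. The targeted gene Agtr1a was low throughout, at 1.75 (floxed), 1.32 (Cdh5Cre) and 1.21 FPKM (Sm22Cre). Smooth muscle markers summed to 6803 (floxed), 7174 (Cdh5Cre) and 6712 FPKM (Sm22Cre), so the labelled tissue shows its defining markers, although Acta2 is listed at 0 with the status HIDATA, which marks a locus with too many fragments to process. In whole tissue, fewer cells of a type and less RNA per cell cannot be told apart.

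Lysyl oxidases oxidise lysine side chains of tropoelastin and collagen to reactive aldehydes, which then condense into covalent crosslinks between neighbouring chains. Their activity depends on a bound copper ion and on a quinone cofactor made from the enzyme's own residues. Lox and Loxl1 are secreted as proenzymes with a propeptide that is cut off outside the cell, whereas Loxl2, Loxl3 and Loxl4 carry scavenger receptor domains in place of that propeptide. In mice, loss of Lox causes aortic aneurysm and rupture around birth, and loss of Loxl1 leaves adult tissues unable to renew elastic fibres.

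The 5 genes are paralogues, and the part of the coding sequence that they share most closely encodes the catalytic domain. This bears on whether reads of one member could be counted for another. A stretch of 49 coding bases is shown for 4 members because it holds the longest identical runs among them. It was read 5′ to 3′ on the sense strand from the longest protein-coding transcript of each gene in GENCODE M21. Capitals mark bases that are identical in all 4 genes.
Loxl1: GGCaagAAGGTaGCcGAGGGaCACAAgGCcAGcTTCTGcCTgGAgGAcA
Loxl2: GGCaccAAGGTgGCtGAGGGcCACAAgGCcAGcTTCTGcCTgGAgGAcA
Loxl3: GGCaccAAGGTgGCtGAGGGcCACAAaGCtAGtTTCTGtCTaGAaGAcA
Loxl4: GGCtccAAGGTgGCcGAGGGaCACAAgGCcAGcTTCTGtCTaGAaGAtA

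The stretch lies at bases 1804 to 1852 of the Loxl1 transcript, 2209 to 2257 of Loxl2, 2023 to 2071 of Loxl3 and 2003 to 2051 of Loxl4. Of its 49 bases, 36 were identical in all 4 genes, and 11 of the 13 variable bases fell at codon position 3. Loxl1 differed from Loxl2 at 5 bases here, from Loxl4 at 8 and from Loxl3 at 11. Across all 10 pairs of the 5 transcripts the longest identical run was between 11 and 32 bases, shorter than the reads of 75 bases. The longest, 32 bases, was between Lox and Loxl1, and their most similar window of 75 bases differed at 4 positions. For the other 9 pairs the most similar window differed at 9 to 21 positions. In alignments of the last 600 coding bases the pairs were 67.0% to 73.9% identical, counted over aligned bases without gaps. On that count Loxl2 and Loxl3 had the highest value (587 bases aligned) and Loxl1 and Loxl3 the lowest (527). Lox and Loxl1 were at 73.3% over 599 aligned bases. The sources used here do not say how fragments that map to several genes were assigned.

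Loxl1, the member tied to the upkeep of elastic fibres in adults, was the most abundant. Loxl1 (ENSMUSG00000032334, mm9 chromosome 9, 58135530 to 58161019) had values of 192.6 (floxed), 297.6 (Cdh5Cre) and 184.3 FPKM (Sm22Cre). Its level was set apart in the Cdh5Cre group, and the other two groups were close to each other. Lox (ENSMUSG00000024529, chromosome 18, 52675723 to 52689521), the founding member, which crosslinks both elastin and fibrillar collagen, came next. It was at 53.7 (floxed), 55.0 (Cdh5Cre) and 69.6 FPKM (Sm22Cre), so here it was the Sm22Cre group that stood apart.

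Members with scavenger receptor domains were lower. Loxl3 (ENSMUSG00000000693, chromosome 6, 82984167 to 83007674), which is needed for palate and spine development in the mouse, was at 32.0 (floxed), 38.9 (Cdh5Cre) and 33.2 FPKM (Sm22Cre). Loxl2 (ENSMUSG00000034205, chromosome 14, 69955208 to 70166920), which acts on collagen IV of basement membranes, was at 27.0, 25.3 and 26.2 FPKM in the same order and was the most even of the family. Loxl4 (ENSMUSG00000025185, chromosome 19, 42668472 to 42687303) was at 3.52 (floxed), 2.92 (Cdh5Cre) and 2.66 FPKM (Sm22Cre), with floxed the highest group.

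The order of the levels, which FPKM scales to transcript length, was Loxl1, Lox, Loxl3, Loxl2 and Loxl4 in all 3 groups. Loxl3 and Loxl2 were the nearest neighbours in that order in floxed and Sm22Cre, with ratios of their FPKM of 1.18 and 1.27. In Cdh5Cre that ratio was 1.54, and Lox and Loxl3 were nearer to each other, with a ratio of 1.41. Whether these neighbours differ beyond the spread between mice cannot be said from group values. Loxl1 exceeded Loxl4 by 54.7-fold in floxed, 101.8-fold in Cdh5Cre and 69.4-fold in Sm22Cre. Among all analysed genes in the floxed aorta, the level of Loxl1 lay at percentile 97.3, Lox at 88.8, Loxl3 at 80.5, Loxl2 at 76.8 and Loxl4 at 23.6.

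The make-up of the family differed more between groups than the order did. Loxl1 held 62.4% of the summed FPKM of the 5 genes in floxed, 70.9% in Cdh5Cre and 58.3% in Sm22Cre. Lox held 17.4%, 13.1% and 22.0% in the same order, and Loxl4 never more than 1.14%. The ratio of Loxl1 to Lox was 3.59 in floxed, 5.41 in Cdh5Cre and 2.65 in Sm22Cre. With the dependence of the values on transcript length and GC content removed, Loxl1 and Lox differed from floxed by nearly the same amount in Cdh5Cre, with log2 ratios of 0.38 and 0.32, so this range moves with the processing. The family's summed level was 308.8 (floxed), 419.7 (Cdh5Cre) and 316.0 FPKM (Sm22Cre).

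**Figure D1:**
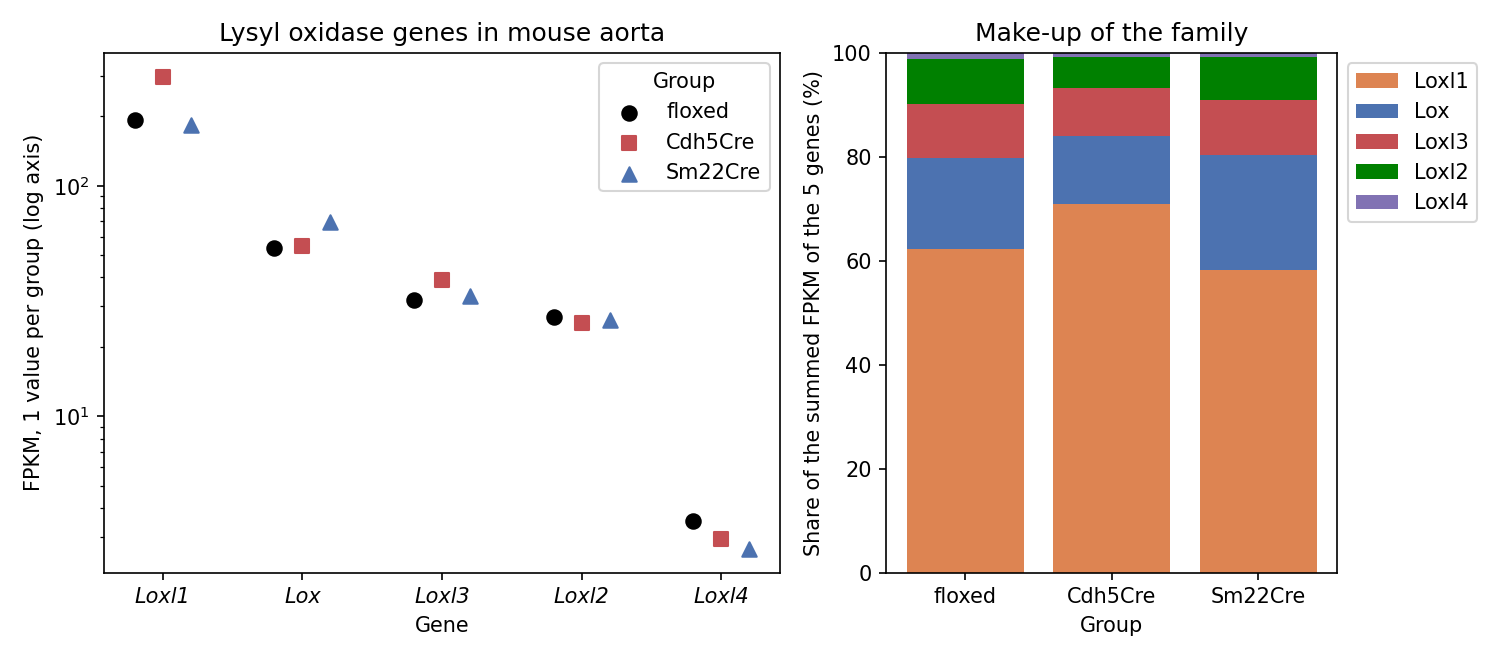
Left, FPKM of the 5 lysyl oxidase genes on a log axis, 1 point per group (the authors' value for 3 libraries, so no error bars). Right, the share of each gene in the summed FPKM of the 5 (%). Loxl1 is highest throughout, at 297.6 FPKM in Cdh5Cre, and Lox takes its largest share, 22.0%, in Sm22Cre.

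The first comparison, Cdh5Cre against floxed, asks about receptor deletion aimed at endothelium. Differences are given as the difference of log2(FPKM + 1), which understates those of low genes, and a gene was counted as called when it reached 2-fold on that scale. None of the 5 members was called, against 1.89% of all analysed genes in either direction. Loxl1 had the largest difference, 1.55-fold higher in Cdh5Cre with a log2 ratio of 0.63, and 6.9% of all genes had a ratio at least as high. At a threshold of 1.5-fold, which 14.3% of all genes reached, Loxl1 was the single member counted. Loxl3 was 1.22-fold higher (log2 ratio 0.27), with 27.4% of all genes at least as high.

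Lox and Loxl2 had almost the same level in both groups, with log2 ratios of 0.03 and -0.09. Loxl4 was 17.0% lower in Cdh5Cre (log2 ratio -0.21), at a level near 3 FPKM. In all, 3 of 5 members were above 0, where 51.7% of all genes were, and the median of the members was 0.03 against 0.02 for all genes. All members had the status OK in the authors' deposited table in every pair.

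Log2 ratios of this comparison went with transcript length and base composition across the transcriptome, and the members differ in both. Longer transcripts had lower ratios (Spearman's rho -0.58 over 12317 genes, which are not independent replicates) and GC-rich ones higher ratios (rho 0.53). The Loxl1 transcript has 61.0% GC, higher than 97.0% of these 12317 genes, and the Lox transcript has 43.9%, higher than 17.7%. With that dependence removed, the log2 ratio of Loxl1 was 0.38 in place of 0.63, and that of Lox was 0.32 in place of 0.03, so the gap between Loxl1 and Lox was nearly gone. Loxl3 stayed at 0.27, Loxl4 was at -0.31 and Loxl2 at 0.02, on the other side of 0. What part of the Loxl1 difference belongs to transcript properties was not tested.

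The Cdh5Cre values also summed to more, 607860 FPKM over all genes against 495724 in floxed and 500015 in Sm22Cre. Scaled to equal sums, which lowered the median log2 ratio of all genes by 0.25 in this comparison, Loxl1 was at 0.33, Loxl3 at -0.01, Lox at -0.25, Loxl2 at -0.37 and Loxl4 at -0.43. Relative to that lower median, Loxl1 and Loxl3 were still above it. Under every scaling plotted, Loxl1 was the highest of the 5 ratios in this comparison and Loxl4 the lowest.

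**Figure D2:**
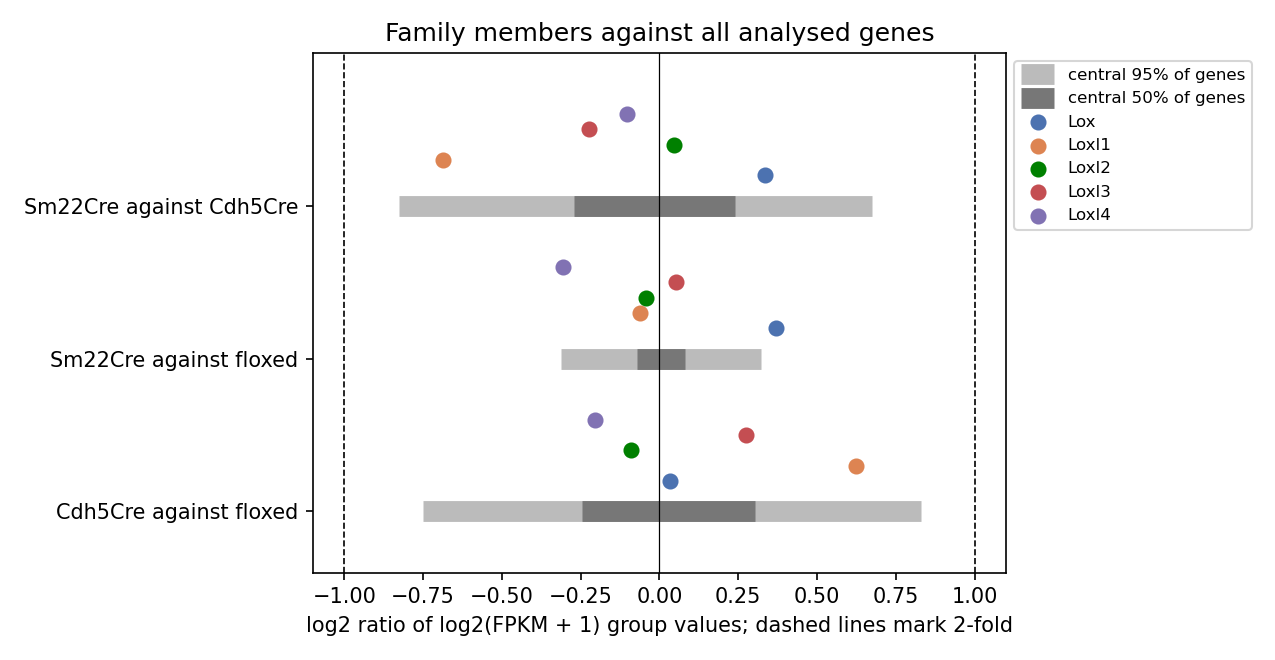
Log2 ratios of the 5 members (points) in the 3 comparisons, above bars that span the central 50% and 95% of all 14225 analysed genes. Dashed lines mark 2-fold. No member reaches 2-fold. Lox against floxed in Sm22Cre (0.37) lies beyond the central 95%, while Loxl1 in Cdh5Cre (0.63) lies inside a wider spread.

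Cell type markers differed between these groups as well. Of 7 markers of adventitial fibroblasts, a main source of vascular collagen, 6 were higher in Cdh5Cre and their summed level was 2846 FPKM against 1864 in floxed and 1837 in Sm22Cre. Their median log2 ratio in Cdh5Cre against floxed was 0.35. It was 0.06 with equal FPKM sums (5 of 7 higher), against -0.23 for all genes, and 0.19 under quantile normalization (4 of 7). With the length and GC dependence removed it was 0.57 (7 of 7). All 9 endothelial markers were higher, with sums of 505.5 FPKM in Cdh5Cre, 325.1 in floxed and 365.7 in Sm22Cre. All 5 analysed erythroid markers were called higher, with sums of 25453, 4020 and 9028 FPKM in the same order. The 5 platelet markers were called higher too, with sums of 253.5, 43.9 and 83.8 FPKM, as were the 3 neutrophil markers, with sums of 40.4, 2.87 and 11.1 FPKM. Summed heart muscle markers were 1064 FPKM in Cdh5Cre, 674.8 in floxed and 307.9 in Sm22Cre. All 6 were higher in Cdh5Cre than in floxed (median log2 ratio 0.64). With the length and GC dependence removed, 4 of 6 were (median 0.28). Not every list was higher in Cdh5Cre than in floxed. Of 5 macrophage markers 3 were lower and 2 higher (median log2 ratio -0.31). Of 5 analysed smooth muscle markers 3 were lower and 2 higher (median -0.04). The part of these cell types in the values of the lysyl oxidase genes was not tested.

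The second comparison, Sm22Cre against floxed, asks about deletion aimed at smooth muscle. Again none of the 5 members was called, and 0.633% of all genes were. Lox was 29.8% higher in Sm22Cre (53.7 and 69.6 FPKM), with a log2 ratio of 0.37. In this comparison few genes differed much: 1.88% of all genes had a ratio at least as high as that of Lox. Loxl4 was 1.33-fold lower (3.52 and 2.66 FPKM, log2 ratio -0.31), and 2.63% of all genes had a ratio at least as low.

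The remaining 3 members lay close to floxed. Loxl1 had a log2 ratio of -0.06, Loxl2 of -0.04 and Loxl3 of 0.05, sizes that 57.1%, 69.8% and 63.4% of all genes equalled or exceeded. The members' median was -0.04, against 0.01 for all genes, with 2 of 5 above 0 where 52.0% of all genes were. Length and GC content accounted for 3.78% of the variance here, against 44.8% in Cdh5Cre against floxed. Across all 9 alternative settings the log2 ratio of Lox stayed between 0.36 and 0.38, although the filter and status settings cannot change the ratio of a single gene. Loxl4 ranged from -0.41 to -0.29 over the settings that retained it.

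Markers of other cell types differed in Sm22Cre too. Against floxed, all 5 analysed erythroid markers (median log2 ratio 1.12), 2 of 5 platelet markers and 2 of 3 neutrophil markers were called higher. All 6 heart muscle markers were lower than in floxed, 4 of them called, with a median log2 ratio of -1.22, and all 4 mesothelial markers were lower, with sums of 23.9 FPKM in floxed and 17.0 in Sm22Cre. Of 7 fibroblast markers 3 were higher (median -0.05), and of 5 smooth muscle markers 2 were (median -0.08). Their part in the Lox difference was not tested.

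**Figure D3:**
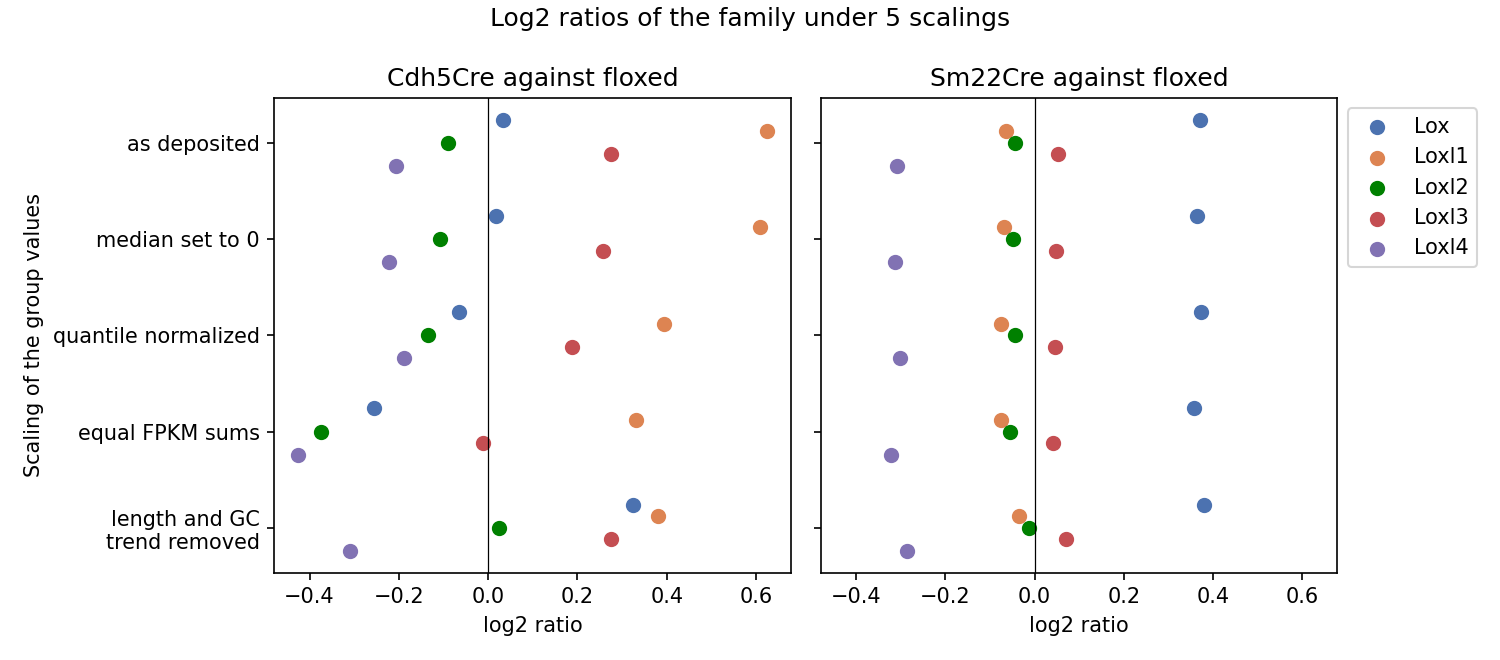
Log2 ratios of the 5 members against floxed under 5 scalings of the group values, for Cdh5Cre (left) and Sm22Cre (right). In Cdh5Cre the ratio of Lox runs from -0.25 with equal FPKM sums to 0.32 with the length and GC trend removed. In Sm22Cre it stays between 0.36 and 0.38.

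The third comparison, Sm22Cre against Cdh5Cre, shares its values with the first and second. No member was called, against 1.63% of all genes. Loxl1 was 1.61-fold lower in Sm22Cre (log2 ratio -0.69) and was the single member past 1.5-fold, which 11.9% of all genes reached. Lox was 1.27-fold higher (0.34), Loxl3 1.17-fold lower (-0.22), and Loxl4 and Loxl2 were at -0.10 and 0.05. With the length and GC dependence removed, Loxl1 was at -0.41 and Lox at 0.06.

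Substrates of the family were abundant. Elastin (Eln) was at 1134 (floxed), 1147 (Cdh5Cre) and 1270 FPKM (Sm22Cre), with log2 ratios against floxed of 0.02 and 0.16. The FPKM of Eln per FPKM of Lox was 21.1 in floxed, 20.9 in Cdh5Cre and 18.2 in Sm22Cre, and per FPKM of Loxl1 it was 5.89, 3.86 and 6.89. Of 12 elastin and collagen substrate genes, 10 were analysed and none was called against floxed in either Cre group. In Cdh5Cre 7 of the 10 were higher (median 0.12), and in Sm22Cre 6 of 10 (median 0.04). The largest ratios in Cdh5Cre were those of Col5a3, a chain of collagen V, at 2.08 and 3.63 FPKM, and Col11a2, a chain of collagen XI, at 4.33 and 6.68. In Sm22Cre they were those of Col11a2 (0.17) and Eln. Under quantile normalization or equal sums, 3 of the 10 substrates were higher in Cdh5Cre, with a median of -0.17 in both. The median of all genes was -0.01 under quantile normalization and -0.23 with equal sums.

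Scaffold proteins place lysyl oxidases on microfibrils and collagen. Fibulin-4 (Efemp2), which tethers Lox to tropoelastin, was at 159.4 (floxed), 193.7 (Cdh5Cre) and 160.4 FPKM (Sm22Cre), with the status FAIL in every pair, which marks a numerical failure in the authors' comparison. Fibulin-5 (Fbln5), which binds Loxl1, was at 149.3, 153.6 and 151.8 FPKM. Of 12 scaffold and partner genes analysed, 9 were higher in Cdh5Cre (median 0.29) and 6 in Sm22Cre (median -0.02), and none was called. The microfibril genes Mfap2 and Mfap4 had the largest ratios in Cdh5Cre, 0.79 and 0.64, which were 0.28 and 0.38 with the length and GC dependence removed. The status of Mfap2 was FAIL in every pair, and that of Mfap4 was OK in this comparison. In Sm22Cre, Thbs1, which encodes the matricellular protein thrombospondin-1, and Fmod, which encodes fibromodulin, a collagen-binding proteoglycan that interacts with Lox, had log2 ratios of -0.24 and -0.22. With equal sums, 6 of the 12 were higher in Cdh5Cre, with a median of 0.00 against -0.23 for all genes.

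Bmp1 encodes the protease that releases the propeptide of Lox. It was at 64.0 (floxed), 88.7 (Cdh5Cre) and 68.4 FPKM (Sm22Cre), with the status FAIL in every pair. Pcolce, which encodes an enhancer of that protease on procollagen, was at 191.7, 363.2 and 176.6 FPKM. It was 1.89-fold higher in Cdh5Cre than in floxed, short of the threshold on the log2 scale (0.92), and 2.06-fold lower in Sm22Cre than in Cdh5Cre (-1.04). Of the 51 pathway genes analysed, Pcolce was the single one called in any comparison. In that comparison, Sm22Cre against Cdh5Cre, 1.63% of all genes were called. Pcolce shares its listed locus with another gene. Its status was FAIL in every pair, so it drops out when status OK is required. It was also not called with the length and GC dependence removed (-0.67) or under quantile normalization. All 5 analysed genes of this list were higher in Cdh5Cre than in floxed (median 0.40) and 2 of 5 in Sm22Cre (median -0.04). With equal sums 4 were higher in Cdh5Cre, with a median of 0.11 against -0.23 for all genes. Of the 5 genes, Adamts2, a procollagen protease, had a ratio of -0.15 and its relative Adamts14 of 0.15 in Sm22Cre.

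Copper reaches secreted cuproenzymes through the chaperone Atox1 and the pump Atp7a of the Golgi membrane. Atox1 was at 55.5 (floxed), 99.1 (Cdh5Cre) and 58.5 FPKM (Sm22Cre). Atp7a went the other way, at 3.98, 1.98 and 4.31 FPKM, with a log2 ratio of -0.74 in Cdh5Cre and the status FAIL in every pair. With the length and GC dependence removed, Atox1 was at 0.12 and Atp7a at -0.46 in Cdh5Cre. Of 8 copper supply genes analysed, 6 were higher in each Cre group than in floxed, with medians of 0.42 in Cdh5Cre and 0.09 in Sm22Cre, and none was called. The Cdh5Cre median was 0.08 with the length and GC dependence removed (5 of 8 higher). With equal sums it was 0.13 (4 of 8), against -0.23 for all genes. The metallothionein genes Mt1 and Mt2, which encode metal-binding proteins, had the largest ratios in Sm22Cre, 0.16 and 0.17.

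Enzymes and chaperones that prepare collagen inside the cell, listed together with transglutaminase genes, formed the largest list. Of its 17 genes 14 were analysed, including the transglutaminase gene given under other observations. In Cdh5Cre 10 of 14 were higher (median 0.23), led by the collagen chaperone gene Serpinh1 at 299.2 FPKM in floxed and 530.1 in Cdh5Cre. P4ha1, a subunit of prolyl 4-hydroxylase, was at 26.0 (floxed), 40.1 (Cdh5Cre) and 34.5 FPKM (Sm22Cre), and its status was FAIL. The Cdh5Cre count was 8 of 14 with the length and GC dependence removed (median 0.06) and 9 under quantile normalization (median 0.06). It was 5 with equal sums, where the median turned to -0.06 against -0.23 for all genes. In Sm22Cre 9 of 14 were higher (median 0.02), with P4ha1 (0.39) and P4ha2 (0.20, also status FAIL) highest. None of the 14 was called in any comparison. The amine oxidase gene Aoc3, which encodes another copper enzyme with a quinone cofactor, was at 142.9 (floxed), 118.4 (Cdh5Cre) and 134.9 FPKM (Sm22Cre), and Aoc2 at 1.86, 1.58 and 2.00.

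Over all 6 pathway lists 51 of 61 genes were analysed. In Cdh5Cre against floxed 37 were higher, with a median of 0.26 against 0.02 for all genes, and in Sm22Cre against floxed 30 were, with a median of 0.02 against 0.01. The first count was 35 with the length and GC dependence removed (median 0.15), 31 under quantile normalization (median 0.10) and 22 with equal sums (median -0.03). The medians of all genes were -0.02, -0.01 and -0.23 under these settings, in the same order.

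**Figure D4:**
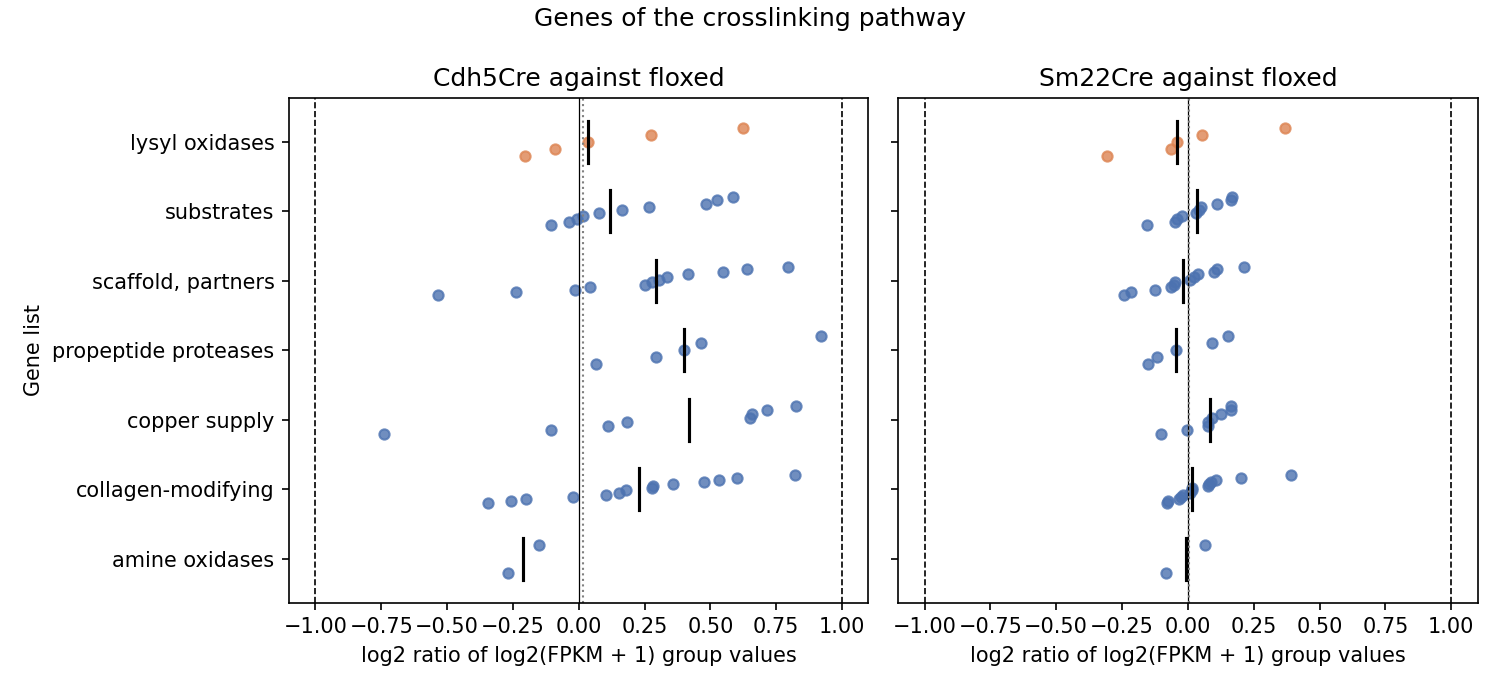
Log2 ratios of single genes (points) and list medians (black ticks) for the lysyl oxidases and 6 lists of the crosslinking pathway. Dashed lines mark 2-fold and the dotted line the median of all genes. In Cdh5Cre the list medians run from -0.21 for other amine oxidases to 0.42 for copper supply (0.08 with the length and GC dependence removed), and in Sm22Cre all lie within 0.09 of 0.

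The genes whose pattern over the 3 groups was nearest to each member were sought by the Euclidean distance of log2(FPKM + 1), centred over the groups, among 4065 genes of at least 10 FPKM in every group and status OK. For Loxl1 they were Fxyd1, which encodes a regulator of the sodium pump (250.3 (floxed), 389.2 (Cdh5Cre) and 243.4 FPKM (Sm22Cre)), and Mrpl34, with 52 genes within a distance of 0.05. Lox was nearest to Gm12346 and to Errfi1, an inhibitor of the epidermal growth factor receptor (33.9, 35.8 and 45.4 FPKM), with 6 genes within that distance. Loxl2 was nearest to Gosr2 and Odf2, Loxl3 to Washc3 and Ppm1m, with 205 and 223 genes as near, and Loxl4 to Prr12 and Tmod1, with 4. The distance rests on 3 group values, so many genes share the patterns of Loxl1, Loxl2 and Loxl3. Adding 1 to the FPKM shrinks the pattern of Loxl4, a low gene, more than those of the genes compared, which had at least 10 FPKM.

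Listed loci of Loxl2 and Loxl3 are shared with other genes, and those of Lox, Loxl1 and Loxl4 are not. Aup1 and Htra2, at the Loxl3 locus, were at 36.6 and 24.3 FPKM in floxed and at 63.8 and 34.4 in Cdh5Cre, both with status FAIL in every pair, so the neighbours of Loxl3 were higher in the same group as Loxl3 itself. At the Loxl2 locus, Entpd4b was at 18.4 (floxed), 17.5 (Cdh5Cre) and 18.3 FPKM (Sm22Cre), and Chmp7 at 19.4, 17.7 and 20.5. R3hcc1 at the same locus went the other way from Loxl2 in Cdh5Cre. It was at 16.3 (floxed), 19.8 (Cdh5Cre) and 16.5 FPKM (Sm22Cre), with status FAIL in every pair. Whether fragments were divided between these genes was not tested.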

How the data were processed

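Per the labels' protocols, RNA from frozen aorta was used when its integrity number was above 8. Poly-A RNA from 1 µg of total RNA gave stranded libraries of fragments of about 300 bp, sequenced as paired reads of 75 bases. The submitters' processing notes name Cufflinks 1.3.0, SAMtools 0.1.7, Bowtie2 2.1.0 and TopHat2 2.0.8 with build mm9, without role or order. The authors deposited FPKM values, 1 per group in each of 3 pairs of groups, with a status per pair. The gene annotation and strand setting are not given in the sources used here.

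Floxed and Sm22Cre values were read from their common pair and Cdh5Cre values from its pair with Sm22Cre. The 7 genes with status HIDATA in any pair were left out, and genes below 1 FPKM in every group were not analysed. Symbols came from GENCODE M21, which matched 32638 identifiers. Starts were taken as counted from 0 and 1 was added. Ratios used a pseudocount of 1. The length and GC dependence was removed by a quadratic fit over 12317 protein-coding genes, keeping the median ratio. Python 3.11.15, numpy 2.4.6, pandas 2.3.3 and Biopython 1.88 were used, and the calculations were tested on simulated data. Members and lists were chosen with earlier results of these data known. Named pathway genes are Eln, any called gene and, in each list, the 2 with the largest ratios against floxed. Efemp2 and Fbln5 were added for their known binding to Lox and Loxl1. Genes at the members' loci and those under other observations were chosen after their values were seen. The 2-fold threshold is a rule of size and not a test, since group values have no replicates.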

Additional observations from a re-analysis of the deposited data

How the results depend on the processing

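No setting brought a member past 2-fold: over 9 settings the largest log2 ratio of any member was 0.69 in size. Of 132 member values, 124 kept their direction and 8 did not, and the cause was not tested. Many of the 124 could not have turned. The filter and status settings leave a member's own ratio unchanged, and a changed pseudocount cannot turn its direction. Only a median ratio set to 0, quantile normalization, equal FPKM sums and trend removal could turn a value. In Cdh5Cre against floxed, Lox turned to -0.065 under quantile normalization and to -0.25 with equal FPKM sums (a scaling chosen after seeing the data), Loxl3 to -0.012 with equal sums, and Loxl2 to 0.023 with the length and GC trend removed. In Sm22Cre against Cdh5Cre, Loxl2 turned to -0.033 and Loxl4 to 0.026 with the trend removed, and Loxl3 to 0.052 and Loxl4 to 0.10 with equal sums. The median of the members followed: in Cdh5Cre against floxed it was -0.065 under quantile normalization and -0.25 with equal sums, in Sm22Cre against Cdh5Cre 0.10 with equal sums, and in Sm22Cre against floxed 0.0047 (against -0.04) with the 5 FPKM filter, which removes Loxl4. At 1.5-fold, 1 member counted in Cdh5Cre against floxed and 1 in Sm22Cre against Cdh5Cre, against 0 each at 2-fold. Of 51 pathway genes analysed, 1 reached 2-fold in Sm22Cre against Cdh5Cre, where 1.63% of all genes did. At 1.5-fold 6 were counted, against 11.9% of all genes. With a pseudocount of 0.1 or none 2 reached 2-fold, against 3.71% and 3.78% of all genes. The count was 0 with the trend removed, under quantile normalization or with status OK, against 0.73%, 1.53% and 1.76% of all genes. In Cdh5Cre against floxed 0 of the 51 reached 2-fold, where 1.89% of all genes did. At 1.5-fold 11 were counted, against 14.3% of all genes. Without a pseudocount 1 (Atp7a) reached 2-fold, against 4.35% of all genes. The pathway median turned to -0.029 in Cdh5Cre against floxed and to 0.047 in Sm22Cre against Cdh5Cre with equal sums. The medians of all genes there were -0.23 and 0.23 in the same order. The share of all genes called in Cdh5Cre against floxed was 1.89%, with 4.12% at a pseudocount of 0.1, 4.35% without one, 3.04% with equal sums, 1.10% without a filter and 0.65% with the trend removed. Of these calls, 62.8% were higher, 73.8% with the trend removed and 21.0% with equal sums. No library could be left out, because only group values were used. No paired analysis was possible because the groups share no replicate numbers and have 1 value each. Loxl4, near 3 FPKM, is the member that low values limit most.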

Other observations

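Some pathway genes known from cartilage or development were below 1 FPKM in floxed, but not all such genes were low. Fbn2, the fibrillin of developing tissue, was at 0.07 FPKM in floxed, and the Bmp1 relatives Tll1 and Tll2 were at 0.22 and 0.03. Col2a1 and Col11a1, fibrillar collagens of cartilage, were at 0.41 and 0.45 FPKM in floxed. Col11a2, another chain of collagen XI, was at 4.33 FPKM there, above Loxl4 at 3.52. The cartilage markers Comp, Acan and Sox9 were at 69.2, 4.65 and 4.52 FPKM in floxed. The crosslinking enzyme gene Tgm2, a transglutaminase that joins lysine to glutamine, was at 224.7 (floxed), 221.1 (Cdh5Cre) and 227.0 FPKM (Sm22Cre), with the status FAIL against floxed in both Cre groups. Plod1, Plod2 and Plod3 encode lysyl hydroxylases, which modify the collagen lysines that lysyl oxidases then act on. Plod2 was at 35.1, 27.5 and 37.2 FPKM in floxed, Cdh5Cre and Sm22Cre, while Plod3 was at 51.0, 71.2 and 54.2. Plod1 was at 25.5, 31.3 and 25.7 FPKM in the same order. In Cdh5Cre against floxed the log2 ratios of Plod2 and Plod3 were -0.34 and 0.48. With the length and GC dependence removed they were -0.11 and 0.31.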
